A study of Mus musculus with 2 samples.

Results

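The 10 genes described here, Gata3, Klf4, Klf5, Elf3, Elf5, Ehf, Foxa1, Grhl3, Trp63 and Sox2, encode transcription factors known from the urothelium or from other stratifying epithelia. They were taken by gene symbol from the 29982 genes on a whole-genome mouse array, with earlier results of these data known. The array carried 14 probes for them, and 2 of the genes, Trp63 and Ehf, had more than 1 probe.

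The urothelium is the watertight, stratified lining of the ureter and bladder, with basal cells at its base, intermediate cells above them and superficial cells, which make the uroplakin plaques, at the lumen. PPARG is a ligand-activated nuclear receptor that binds DNA with RXR and is known for its role in urothelial and fat cell differentiation. GATA3, FOXA1, KLF5, ELF3 and GRHL3 are known as factors of differentiating urothelial cells, whereas the p63 protein encoded by Trp63 marks the basal compartment of stratified epithelia.

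RNA came from ureters of NMRI mouse embryos at embryonic stage E16.5. Control embryos carried 1 or more floxed Pparg alleles without the recombinase, labelled Pparg(fl/?), and mutant embryos, labelled Pparg-cKO, were Pax2-cre/+; Pparg(fl/fl). Ureters were pooled by genotype and sex, and 1 control and 1 Pparg-cKO pool were hybridised together on each of 2 dual-colour arrays, females on array 1 and males on array 2, with the dyes exchanged between the arrays. The Pax2-cre line recombines in the nephric duct and its derivatives, the ureteric epithelium and the collecting ducts, and leaves the ureteric mesenchyme, which is also in the pools, with its floxed alleles intact. The stage label of the Pparg-cKO channel states E14.5, against E16.5 in the title and protocol, and E16.5 was used. The mutant still makes a transcript without the floxed exons, so the Pparg probe, which lies in the 3′ part of the gene, does not check the deletion.

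Each ratio below is RNA A over RNA B on the log2 scale, and each pair of signals is that of RNA A against that of RNA B. On array 1, RNA A carried the red dye AlexaFluor647, and on array 2 it carried the green dye AlexaFluor555, with RNA B as its partner. By the dye labels RNA A is the control. The authors' deposited fold changes ran in the direction of RNA A over RNA B (Pearson r = 0.997 across probes on either array), and if they are Pparg-cKO over control, as the sample titles put it, RNA A is Pparg-cKO and the direction by the labels is the opposite of the study's. The conflict was not settled, and no genotype is assigned to a direction here. A difference between the arrays can be one of dye, of sex or of the pools themselves, which cannot be told apart.

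The tissue label was borne out by the superficial cell markers, with Upk3a at signals of 30472 to 51987 in the 4 channels, and by the mesenchymal and muscle markers, with Acta2 at signals of 39606 to 72555. Of the 21429 genes tested, which stood well above background in the same RNA, or in both RNAs, on each array, 61% had ratios of opposite sign on the arrays, and across the 14585 of them with a signal of 100 or more in all 4 channels the ratios of the arrays correlated at r = −0.29. This is a correlation across genes, which are not independent replicates. Pparg itself had a signal of 11295 against 7430 (array 1) and 12888 against 7872 (array 2). RNA A was the brighter on both arrays, with log2 ratios that averaged 0.66 ± 0.08 (SD, n = 2 arrays) and an adjusted p of 0.615 in limma.

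The probes that carried the largest differences between the RNAs are shown first, since each value below is the signal of 1 such oligonucleotide. All were 60 bases long. For probes within 1 stretch of the genome their first 30 bases are given, and for Klf5, whose probe positions on mm9 chr14:99702656-99712388 span 9733 bases and so cross at least 1 intron, all 60.
Gata3, minus strand of mm9 chr2:9779551-9779610: ttaaggaatatagggggattaaagtatgga
Klf5, plus strand: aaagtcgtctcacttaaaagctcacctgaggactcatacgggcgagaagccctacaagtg
Grhl3, minus strand of mm9 chr4:135097991-135098050: ggaacaaatacccttgccacctactgttgt
Elf3, minus strand of mm9 chr1:137150328-137150387: tgtgctataaatattccaggtgtatataga
Foxa1, minus strand of mm9 chr12:58641764-58641823: gcatggtttactccttttctttacagccga
The positions are those in the array's own annotation. Whether each lies in a coding exon or an untranslated region was not analysed here.

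All 10 genes were well above background and entered the limma fit, and none passed an adjusted p of 0.05 in either direction. Of all genes in that fit, 0.126% passed with RNA A the brighter and 0.187% with RNA B. At an unadjusted p under 0.05, the count of members was also 0 in either direction, beside 1.68% and 2.1% of all genes. With 2 ratios a gene, an exact two-sided sign-flip test cannot go below p = 0.5 for a single gene. The rule of 1.5-fold on both arrays in 1 direction with a signal of at least 100 was met by 0 members, and by 0.313% of all genes for RNA A and 0.46% for RNA B. At that size 0 members had opposite directions on the arrays, beside 0.86% of all genes.

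The arrays, read apart, differed. On array 1, 5 of the 10 genes, Gata3, Klf5, Grhl3, Elf3 and Foxa1, were at least 1.5-fold brighter in RNA B at a signal of 100 or more, beside 4.2% of all genes, and 0 were brighter in RNA A by that much, beside 2.12%. On array 2 the same rule was met by 0 members in either direction, beside 1.97% of all genes for RNA A and 3.2% for RNA B. The median log2 ratio of the 10 genes was −0.51 on array 1 and 0.22 on array 2, where the median over all genes tested was 0.00 and 0.03. The ratio was below 0 on array 1 for 9 of the 10, beside 50% of all genes tested, and above 0 on array 2 for 9, beside 54.2%. The pattern of RNA B brighter on array 1 and RNA A on array 2 was that of 8 of the 10, beside 32.6% of all genes tested, and the reverse pattern that of 0, beside 28.4%. Because the dyes were exchanged, these 8 genes were brighter in green on both arrays. Among the 8, Sox2 had signals of only 10.7 to 16.9, and Elf5 had a ratio of 0.04 on array 2. Trp63 had RNA B brighter on both arrays once its 4 probes were averaged. By the brightest probe, Elf3 was the 1 gene with RNA B brighter on both, as were 17.4% of all genes. Ehf was the 1 gene with RNA A brighter on both, as were 21.6%.

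**Figure D1:**
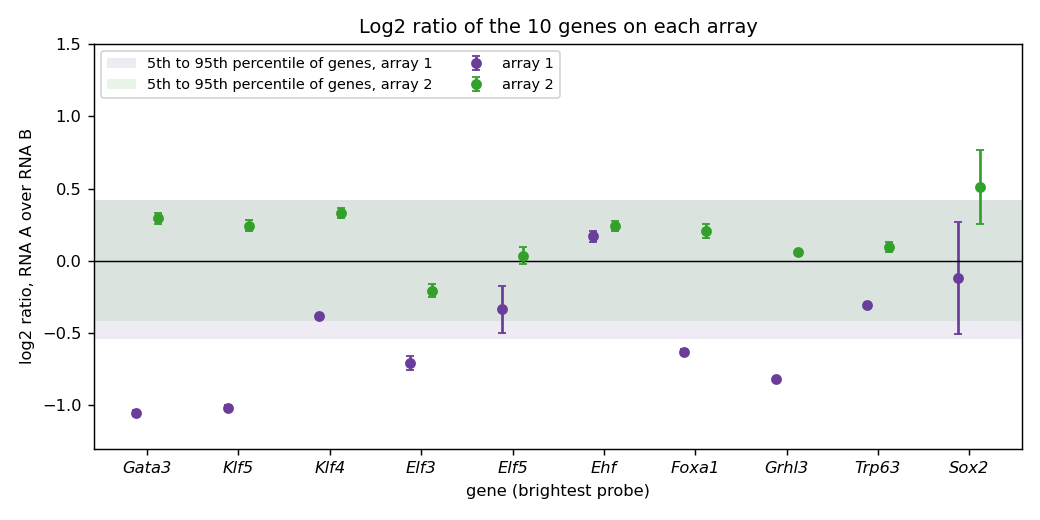
Log2 ratio of RNA A over RNA B for the 10 genes on array 1 (purple) and array 2 (green). Points are the brightest probe of each gene, error bars the SD over its 3 or 4 spots (smaller than the point where not seen), and shaded bands the 5th to 95th percentile of 14585 genes on each array. Gata3, Klf5, Grhl3, Elf3 and Foxa1 lie below the band on array 1, and on array 2 all but Sox2 lie inside it.

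Gata3 encodes a zinc finger factor needed for the nephric duct and known for luminal identity in the urothelium. Its signal was 1904 against 3946 (array 1) and 3854 against 3145 (array 2). The groups overlapped: the RNA A pool of array 1 was the lowest of the 4 and the RNA A pool of array 2 lay next to the highest. RNA B was 2.07-fold brighter on array 1, and RNA A was 1.23-fold brighter on array 2. The log2 ratios were −1.05 with an SD of 0.02 over 3 spots on array 1 and 0.29 with an SD of 0.04 over 4 spots on array 2. The spot SDs cover technical error only. The mean ratio was −0.38, with a 95% confidence interval of −1.07 to 0.31 in limma.

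Klf5, a Krüppel-like zinc finger factor required in the bladder epithelium, had a closely similar pattern. Its signal was 3031 against 6137 (array 1) and 5020 against 4241 (array 2). As with Gata3, the lowest of the 4 values was RNA A on array 1 and the highest was RNA B on the same array. The log2 ratios were −1.02 and 0.24, with a mean of −0.39 (95% confidence interval −1.05 to 0.28, limma). On array 1, 0.315% of the 14585 genes had a lower ratio than Gata3 and 0.377% a lower ratio than Klf5, while on array 2 the genes lay above 88.1% and 83.7% of them.

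Klf4 encodes another Krüppel-like factor, known for epithelial barrier formation. Its signals of 3392 against 4429 (array 1) and 4938 against 3924 (array 2) gave log2 ratios of −0.38 and 0.33. The RNAs overlapped and the ratios nearly cancelled, to a mean of −0.03 (95% confidence interval −0.55 to 0.50, limma).

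Foxa1 encodes a forkhead factor able to bind closed chromatin. Its signals of 7044 against 10913 (array 1) and 10032 against 8712 (array 2) gave log2 ratios of −0.63 over 3 spots and 0.20 over 4. Grhl3, a grainyhead-like factor of terminally differentiating barrier epithelia, had signals of 2861 against 5051 (array 1) and 4321 against 4150 (array 2). For both genes the lowest of the 4 values was again RNA A on array 1 and the highest RNA B on array 1. The Grhl3 ratios of −0.82 and 0.06 averaged −0.38 (95% confidence interval −0.94 to 0.18, limma), and those of Foxa1 averaged −0.21 (95% confidence interval −0.77 to 0.34, limma).

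**Figure D2:**
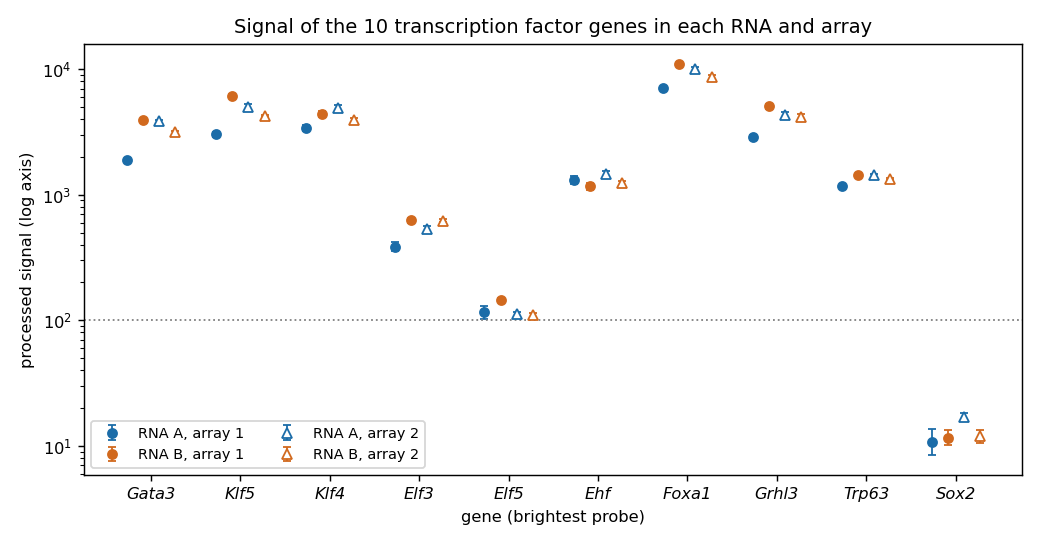
Processed signal of the 10 genes on a log axis, in RNA A (blue) and RNA B (orange), on array 1 (filled circles) and array 2 (open triangles), with error bars of 1 SD over spots on the log2 scale and a dotted line at a signal of 100. For Gata3, Klf5, Grhl3 and Foxa1 the RNA A value of array 1 is the lowest of the 4, and Sox2 lies below 100 throughout.

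The ETS factors of the epithelium-specific subfamily, which bind a GGAA core, did not share 1 pattern. Elf3, known as an epithelial differentiation factor downstream of several nuclear receptors, had signals of 384 against 626 (array 1) and 538 against 621 (array 2). Here the RNAs did not overlap, with both RNA A values below both RNA B values, as for 10.1% of all genes tested. RNA B was 1.63-fold brighter on array 1 and 1.15-fold on array 2, and the log2 ratios of −0.71 and −0.21 averaged −0.46 ± 0.35 (SD, n = 2 arrays). This was the lowest mean among the 10 genes and the lowest unadjusted p, 0.063 in limma, with an adjusted p of 1.00 (95% confidence interval of the mean −0.95 to 0.03).

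Ehf was the gene on the other side. Its brighter probe had signals of 1309 against 1164 (array 1) and 1454 against 1230 (array 2), so that RNA A was brighter on both arrays and its values lay above both of RNA B, as for 14.1% of all genes tested. The log2 ratios were 0.17 and 0.24, and those of the second probe, at mm9 chr2:103114043-103114102, were 0.31 and 0.18. Both probes agreed in sign on both arrays. The mean of the brighter probe was 0.21 ± 0.05 (SD, n = 2 arrays), with an adjusted p of 1.00 in limma.

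Elf5, a factor of secretory and other glandular epithelia, was dim. Its signals of 116 against 146 (array 1) and 113 against 110 (array 2) gave log2 ratios of −0.33 and 0.04, the first with an SD of 0.16 over its spots. Sox2, a stem cell and foregut factor, had low signals, between 10.7 and 16.9 in the 4 channels. Its log2 ratios of −0.12 and 0.51 had SDs of 0.39 and 0.26 over the spots of an array, and it was left out of the 1.5-fold counts by its signal.

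Trp63 had 4 probes along mm9 chromosome 16, which did not agree. The first sits farthest downstream. The second carries a run of 6 CAG triplets, in capitals, and is printed whole because it is the only Trp63 probe whose ratios had the opposite signs to those of the brightest probe on both arrays. The others are given by their first 30 bases.
Trp63 probe 1, plus strand of chr16:25892012-25892071: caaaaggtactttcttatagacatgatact
Trp63 probe 2, plus strand of chr16:25871159-25871218: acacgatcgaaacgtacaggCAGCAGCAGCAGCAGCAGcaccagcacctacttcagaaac
Trp63 probe 3, plus strand of chr16:25821344-25821403: acttaccatgtgtcctggctatagcttttc
Trp63 probe 4, plus strand of chr16:25867718-25867777: cagtcccatataccatgcacttaactcttt

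Probe 1 of Trp63 had signals of 1166 against 1443 (array 1) and 1435 against 1341 (array 2), and log2 ratios of −0.31 and 0.10. Probe 2 had log2 ratios of 0.12 on array 1 and −0.23 on array 2. Probes 3 and 4, which the array's annotation ties to cDNA clones and not to a RefSeq transcript, had RNA B brighter on both, with log2 ratios of −0.40 and −0.30 for probe 3 and of −0.30 and −0.26 for probe 4. The spread among the probes of this gene on array 1, from −0.40 to 0.12, was thus larger than the ratio of any one of them. With the 4 probes averaged, the ratio of Trp63 was −0.22 on array 1 and −0.17 on array 2, and the genes of opposite sign on the arrays fell from 8 to 7. Which transcripts of the gene each probe reads was not analysed here.

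**Figure D3:**
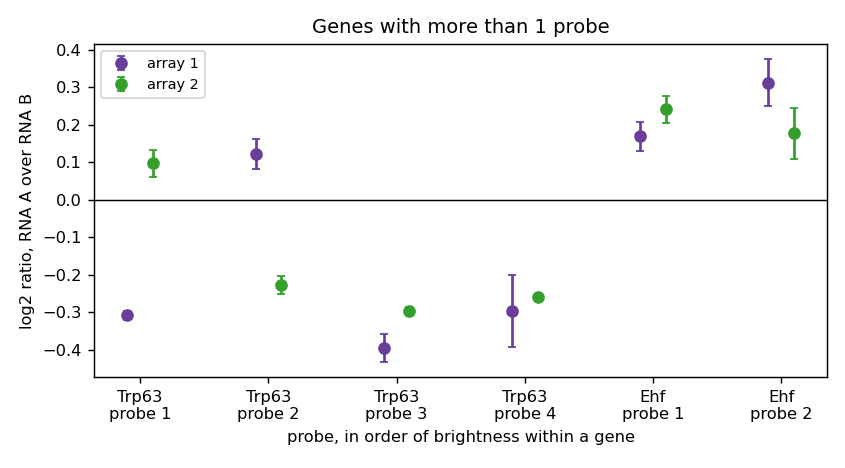
Log2 ratio of RNA A over RNA B for each probe of Trp63 and Ehf on array 1 (purple) and array 2 (green), with error bars of 1 SD over spots. The 4 Trp63 probes differ in sign, whereas both Ehf probes lie above 0 on both arrays.

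The difference between the arrays, divided by 2, is the mean log2 ratio of red over green for a gene. It was −0.67 on the log2 scale for Gata3, −0.63 for Klf5, −0.44 for Grhl3, −0.42 for Foxa1 and −0.36 for Klf4. It was −0.04 for Ehf, the smallest in size. For Gata3, Klf5, Grhl3, Foxa1, Klf4, Elf5, Trp63 and Sox2 it was larger in size than the mean ratio of the RNAs. For Elf3 it was smaller, −0.25 against −0.46, as it was for Ehf, −0.04 against 0.21. Of the 14585 genes, 0.309% had a larger rise from array 1 to array 2 than Gata3 and 0.555% a larger one than Klf5. For Ehf, with the smallest rise among the 10 genes, that share was 44.6%.

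**Figure D4:**
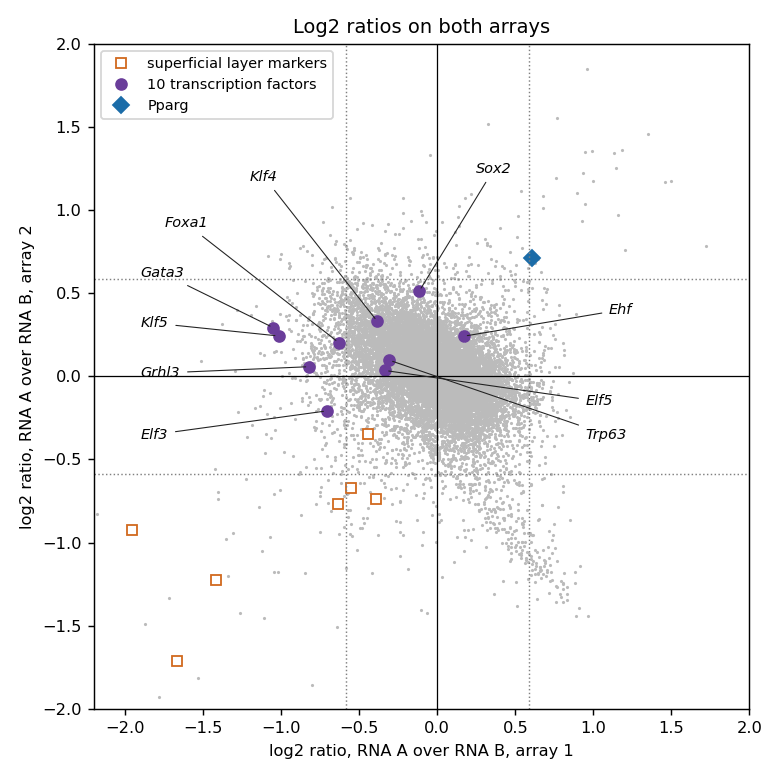
Log2 ratio of RNA A over RNA B on array 1 (x axis) against array 2 (y axis) for 14585 genes (grey, 5 of them outside the axes), the 10 transcription factor genes (purple), 7 superficial layer markers (orange squares) and Pparg (blue diamond), with dotted lines at 1.5-fold. Of the purple points, 8 lie to the left of 0 and above 0, while the orange squares lie below 0 on both axes.

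Gata3 and Klf5 were near neighbours in that plane. By Euclidean distance between the pairs of ratios, with 14584 genes compared, Klf5 was the third nearest gene to Gata3, at a distance of 0.06, and Gata3 the second nearest to Klf5. The nearest gene to both was Ncmap, at 0.03 from Gata3 and 0.04 from Klf5, with ratios of −1.02 and 0.28. The next after Ncmap for Gata3 was Crispld2, followed beyond Klf5 by Fam83g and BB166591, and BB166591, Cux2 and Atn1 completed the 5 of Klf5. With both arrays counted, 6 genes had ratios at least as low as Gata3 on array 1 and as high on array 2, and 8 genes had such ratios for Klf5. These are distances over 2 arrays, each of which holds dye, sex and its own pools as well as genotype.

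Other members of the same DNA-binding families were counted next, as they share motifs with the 10 genes. None of the 45 paralogues tested passed limma. In the GATA family, all 5 tested were brighter in RNA B on array 1 and in RNA A on array 2, beside 32.6% of all genes tested. The medians of the 5 were −0.55 and 0.19. However, Gata1 and Gata4 had signals under 100 on both arrays. Gata5 had ratios of only −0.02 and 0.02, at signals under 100 on array 2. Gata2, which like Gata3 acts in the urogenital tract and in blood cells, was the only one at 1.5-fold or more on an array with a signal of 100. Its signal was 2620 against 4491 (array 1) and 4533 against 4461 (array 2), and its ratios were −0.78 and 0.02. Both remaining grainyhead-like genes passed that mark on array 1 only. Grhl1 had ratios of −0.63 and −0.02, and Grhl2, a regulator of epithelial junction genes, of −0.69 and 0.51.

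Of 15 other KLF genes tested, 10 were brighter in RNA B on array 1 and in RNA A on array 2, beside 32.6% of all genes tested. Of the 15, 1, Klf16, reached 1.5-fold on an array, with ratios of −0.66 and 0.29. The median of the KLF list was −0.12 on array 1 and 0.15 on array 2, nearer to 0 than either Klf4 or Klf5. The ETS list of Spdef, Elf1, Elf2 and Elf4 had medians of −0.12 and 0.05, and none of its genes met the 1.5-fold mark with a signal of 100. Of the FOXA genes, Foxa2 was not well above background and Foxa3 was dim, with ratios of −0.59 and 0.34. The p53 family genes Trp53 and Trp73 lay within −0.17 and 0.24 on both arrays. Among 16 SOX genes tested, the ratios were −0.63 and 0.68 for Sox4, 0.58 and −1.12 for Sox13, and −0.03 and 0.71 for Sox9, so that they shared no direction.

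A list of 21 other transcription factors of epithelia and of the urogenital tract gave 20 genes tested, with medians of −0.13 on array 1 and 0.23 on array 2. None passed limma. Foxq1, a forkhead gene of several epithelia, had the lowest mean ratio of the list at −0.92 (adjusted p = 0.311 in limma), with signals of 1754 against 4100 (array 1) and 2397 against 3677 (array 2). It was the 1 gene of the list brighter in RNA B by 1.5-fold or more on each of the arrays, and its RNAs did not overlap in signal. Next lowest were Lhx1, with ratios of 0.06 and −0.68 at signals under 100, and Ovol2, with 0.15 and −0.67. The highest were Tfap2b, with 0.11 and 0.87 at signals under 100, Barx2, with 0.28 and 0.40 at signals of 13.7 to 22.3, and Tfap2a, with 0.01 and 0.30. Tbx3, Cebpb and Zfp750 were picked out after their values were seen, for being brighter in RNA B by 1.5-fold or more on array 1, as was Foxq1. Their ratios were −1.08 and 0.72 for Tbx3, −0.70 and 0.52 for Cebpb, and −0.67 and 0.51 for Zfp750, and all changed sign between the arrays.

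The cell type markers place the 10 genes among the other components of the ureter. In bulk RNA, fewer cells of a type and less RNA per cell cannot be told apart. All 7 superficial layer markers had RNA B brighter on both, with medians of −0.64 and −0.77, and 2 of them passed limma. Upk3b had the lowest ratios of the list by mean, −1.67 and −1.71 (adjusted p = 0.020 in limma), and Krt20 had −1.96 and −0.92 (adjusted p = 0.098). Of the 10 transcription factor genes, Elf3 alone had this direction on both arrays by the brightest probe of each gene. Probes 3 and 4 of Trp63 had it too, as did the mean of its 4 probes, −0.22 and −0.17. The 6 basal layer markers had medians of 0.23 and 0.39, with Krt5 at 0.26 and 0.67 and Krt15 at 0.55 and 0.34, and 0 passed limma. Of the 6, 3 changed sign between the arrays, among them Itgb4, picked out after its values were seen, which had signals of 383 against 767 (array 1) and 1018 against 611 (array 2) and so the direction of Gata3 and Klf5. The summed signal of 13 pan-epithelial genes was 70789 against 97574 (array 1) and 86582 against 94221 (array 2), with Cldn3 (0.96 and 1.85) and Krt18 (−0.79 and −0.30) farthest from 0.

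The direction of the 8 genes, RNA B on array 1 and RNA A on array 2, was shared by all 6 markers of chromaffin and sympathetic cells, beside 32.6% of all genes tested. Their summed signal was 1341 against 1799 (array 1) and 2550 against 1647 (array 2), the medians were −0.41 and 0.57, and Th and Hand2 were farthest from 0 by their means, 0.18 and 0.11. None of the 6 was at background, and their part in the values of Gata3, which those cells are known to express, was not tested. Of 7 neural and glial markers tested, 5 had that direction, beside the same 32.6% of all genes. Their list had medians of −0.01 and 0.24, with Fabp7 farthest from 0 (0.36 and 0.17). The list's summed signal was 14521 against 17765 (array 1) and 22979 against 19800 (array 2).

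Markers of the other components were mixed. The direction of the 8 genes was shown by 2 of 10 genes of the ureteric mesenchyme, 2 of 5 endothelial, 3 of 5 nephron, 1 of 4 collecting duct and 2 of 4 red cell markers tested. Of all genes tested, 32.6% showed it. The 10 genes of the ureteric mesenchyme and its smooth muscle had medians of −0.39 and −0.41, with Myh11 (−0.42 and −1.18) and Cnn1 (−0.55 and −0.89) lowest by their means, and 5 of the 10 changed sign between the arrays. Among these, picked out after their values were seen, Col1a1 had −0.80 and 0.67, past 1.5-fold in opposite directions, and Tshz3 had −0.37 and 0.56. Endothelial markers, with medians of 0.50 and −0.05, had the largest means in Tek (0.50 and −0.05) and Emcn (0.60 and −0.16). Of the nephron markers, Nphs1 and Umod were not well above background, and the 5 tested had medians of −0.40 and 0.08. Slc34a1 had −2.31 and −3.15 (adjusted p = 0.012 in limma), at signals under 100 on both arrays, and Lrp2 had −0.23 and −0.46. The remaining 3, Six2 (−0.40 and 0.13), Wt1 (−0.51 and 0.08) and Cited1 (−0.26 and 0.28), had the direction of the 8 genes. Collecting duct markers had medians of −0.02 and 0.24, with Fxyd4 at 0.77 and 1.56 and Scnn1g at −0.21 and −0.90, and red cell markers had medians of −0.07 and 0.34, with Hbb-b1 at −0.15 and 0.35. The part of these lists in the values of the 10 genes was not tested.

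**Figure D5:**
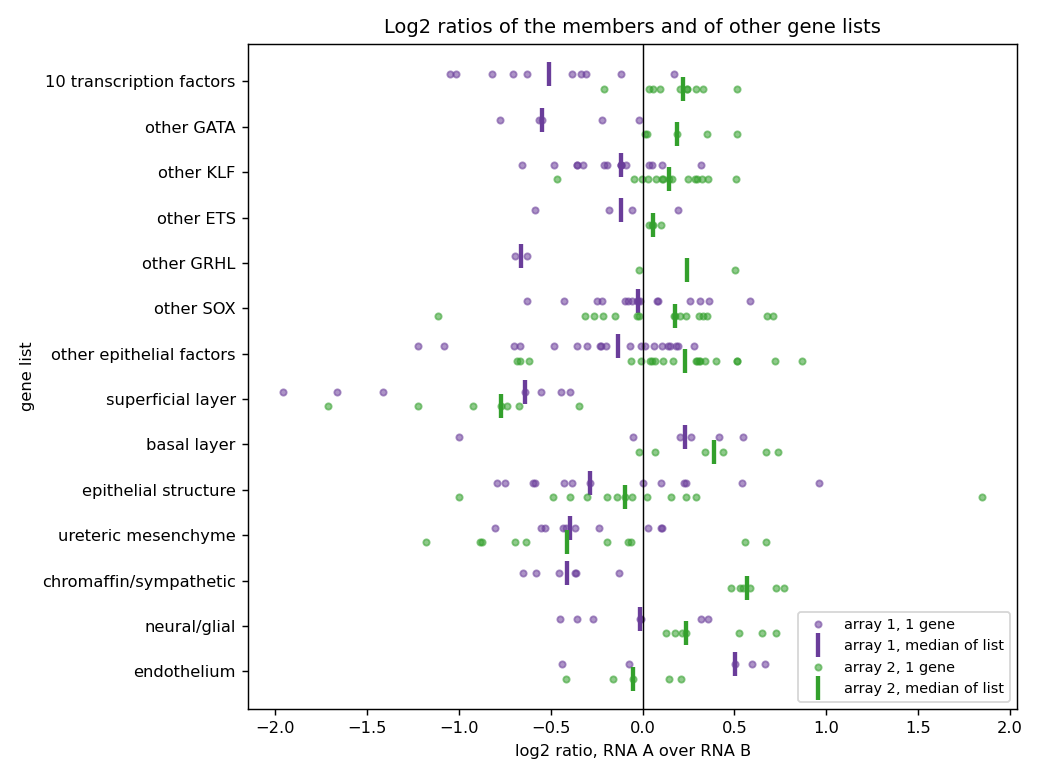
Log2 ratio of RNA A over RNA B for each tested gene (points) and the median (bars) of the 10 genes, of their families and of the marker lists, on array 1 (purple) and array 2 (green). The medians of the 10 genes (−0.51 and 0.22) and of the chromaffin and sympathetic list (−0.41 and 0.57) lie on opposite sides of 0, and those of the superficial layer (−0.64 and −0.77) on the same side.

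Promoters are printed for 3 of the genes at 1.5-fold on array 1, to show which known motifs lie next to their start sites. That of Foxa1, also at 1.5-fold there, was counted below but is not printed. RefSeq start sites of assembly GRCm38.p6 matched 7 of the 10 genes, all but Ehf, Klf5 and Trp63. The 250 bases before the start are printed 5′ to 3′ in the direction of transcription, and capitals mark a match, on either strand, to AGGTCA (bound by nuclear receptors), AGATAA (bound by zinc finger factors of the Gata3 family), GGGCGG (the GC box bound by KLF and SP factors), TGTTTAC (forkhead), CCGGAA (bound by ETS factors) or AACCGG (bound by grainyhead-like factors). The CCGGAA and AACCGG motifs can overlap by their CCGG.
Gata3, minus strand of GRCm38.p6 chr2:9878601-9878850: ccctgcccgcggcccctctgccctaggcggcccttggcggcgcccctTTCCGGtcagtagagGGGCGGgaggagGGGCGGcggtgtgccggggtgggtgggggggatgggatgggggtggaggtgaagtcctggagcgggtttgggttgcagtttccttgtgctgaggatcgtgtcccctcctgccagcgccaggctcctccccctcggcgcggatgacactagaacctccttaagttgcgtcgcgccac
Elf3, minus strand of GRCm38.p6 chr1:135258473-135258722: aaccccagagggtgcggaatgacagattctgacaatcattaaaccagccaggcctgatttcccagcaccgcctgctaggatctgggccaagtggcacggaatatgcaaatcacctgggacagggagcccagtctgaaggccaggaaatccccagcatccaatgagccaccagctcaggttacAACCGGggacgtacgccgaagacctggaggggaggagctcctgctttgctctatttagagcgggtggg
Grhl3, minus strand of GRCm38.p6 chr4:135573633-135573882: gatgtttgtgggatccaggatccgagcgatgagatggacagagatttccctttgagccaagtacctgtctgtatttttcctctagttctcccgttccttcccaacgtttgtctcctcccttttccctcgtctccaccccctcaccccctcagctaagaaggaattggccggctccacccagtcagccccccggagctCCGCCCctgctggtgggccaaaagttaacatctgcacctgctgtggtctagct

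The Gata3 window held GGGCGG at 188 and 176 bases before the start and CCGGAA, on the opposite strand, at 203. The Grhl3 window held the GC box, on the opposite strand, at 53 bases, and that of Elf3 held AACCGG at 68 bases. GGGCGG was present for 5 of the 7 genes (Foxa1, Gata3, Grhl3, Klf4 and Sox2), where 32.7% of 32851 promoters of the same length held it. A gene was counted if any of its promoter entries held the motif. Each percentage is over single promoters, so it is not a like measure. AGGTCA was present for 1 gene, Sox2, beside 14% of all promoters, AACCGG for 1, Elf3, beside 5.6%, and TGTTTAC for 1, Foxa1, beside 3.2%. CCGGAA was present for Gata3 and Sox2, beside 12%, and AGATAA for 0, beside 10% of all promoters. A match is a description of these letters and not of binding.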

How the data were processed

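Pooled ureter RNA was hybridised to 2 dual-colour Agilent arrays on 1 slide, read in 1 scan, so that no batch could be used as a block. The deposited processed intensities of the spots come, per the file headers, from Feature Extraction 10.7.3.1. Background had been subtracted, values near background replaced by surrogates (on array 1, 7.98% of the green spots and 15.2% of the red), and the dyes normalised by a linear step and LOWESS. Ratios of dim or strongly dye-biased probes depend on these steps. The deposited log10 ratios served only as a check of the dyes. The authors' deposited signed fold changes, a ratio scale of unstated direction, were an alternative.

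Flagged and control spots were left out. The log2 signal of a probe is the mean of its 4 spots or of those kept, and the number stands beside a value where fewer were kept. For genes with several probes the brightest over all channels was used, and RefSeq gave names for 28328 of 39429 probes. A probe counted as well above background where 0.5 of its spots did. limma 3.58.1 in R 4.3.3 (lmFit with an intercept, eBayes) was fitted to the log2 ratios of 21429 genes, adjusted by Benjamini-Hochberg at 0.05. The fit and the 1.5-fold rule were tested on simulated data. The number of arrays limits the precision, and pools of ureters are the only replicates. The p-values and intervals rest on the spread between the arrays, which differ in pools, dyes and sex. With 1 residual degree of freedom a gene, limma combines the gene's own spread with a spread shared by all genes. For Gata3 the standard error of the mean was 0.30 in limma. Its SD of 0.95 over the arrays is a spread of single ratios and so not a like measure.

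Named with values are the 10 genes with every probe, Pparg, family members at 1.5-fold on an array with a signal of 100 (at most 3 a family), the 3 highest and 3 lowest other epithelial factors, the 2 largest means of each marker list (some genes are not reported here) and the 5 genes nearest to Gata3 and Klf5. The genes, lists and tests were chosen with earlier results of these data known. Alternatives were other background corrections, normalisations and probe rules, the deposited table, dim or outlier spots kept, other thresholds, an intensity trend, channels fitted without the array, and leaving out each array.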

Additional observations from a re-analysis of the deposited data

Results flagged for a closer look

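In 4 genes the ratio was 1.5-fold or more on array 1 and had the opposite sign on array 2. Of all genes, 4.2% were brighter in RNA B by 1.5-fold on array 1 and 2.12% in RNA A. How many of those changed sign on array 2 was not counted. The log2 ratio of RNA A over RNA B on array 1 minus that on array 2 was −1.34 for Gata3, −1.26 for Klf5, −0.88 for Grhl3 and −0.84 for Foxa1. The difference was not tested, since each array is 1 pair of pools, and dye and sex, which both changed between the arrays, cannot be told apart.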

How the results depend on the processing

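The direction of the mean log2 ratio was kept by each of the 10 genes and by Pparg in all 9 alternatives of correction, normalisation, centring, probes, spots and model, and none of the 10 passed limma in any. The intensity trend, the fit without a filter on dim probes and the fit without the replicate block used the ratios of the main fit. In those alternatives the direction could not change. For Gata3 the mean ran from −0.39 to −0.37, for Klf5 from −0.40 to −0.39, for Elf3 from −0.47 to −0.46, for Trp63 from −0.19 to −0.11 and for Sox2 from 0.10 to 0.20. The counts of 5 and 0 genes at 1.5-fold on array 1 and array 2 were the same in each alternative that gave them, and the medians moved by less than the spread between arrays. With 1 array left out the sign followed the array kept. The value ran from −1.05 to 0.29 for Gata3, −1.02 to 0.24 for Klf5, −0.38 to 0.33 for Klf4, −0.33 to 0.0355 for Elf5, −0.63 to 0.20 for Foxa1, −0.82 to 0.0583 for Grhl3, −0.31 to 0.10 for Trp63 and −0.12 to 0.51 for Sox2. The genes past the 1.5-fold rule in RNA B ran from 0 to 5. Over all genes, limma called 27 for RNA A and 40 for RNA B, but 1 and 0 after normexp and loess, 8 and 20 after loess on the processed signals, 15 and 30 with outlier spots kept, and 0 and 0 with the deposited table or without a filter on dim probes. The cause was not tested. The array pairs the RNAs, and without that replicate block the calls were 1 and 0 over all genes and 0 among the 10. Elf5, at signals near 100, and Sox2, far below, are limited by their signal over background.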
